A study of Mus musculus with 2 samples.

Results

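The genes described here are the secreted Wnt ligands, their receptors and antagonists, and the core intracellular components of the Wnt pathway. They were chosen by gene symbol in the deposited array table: names beginning with Wnt, Fzd, Dkk, Sfrp, Lgr or Rspo, together with named receptors, inhibitors and nuclear factors such as Lrp6, Axin2, Ctnnb1, Tcf7l2, Wif1 and Ascl2. The rule found 61 genes of the 26896 genes with a symbol on the array, and 100 probes represent them. Expression was measured on 2 single-colour Agilent arrays. One array held RNA of mouse glioblastoma stem cells stably transduced with a lentiviral short hairpin RNA against Stat5b (Stat5b knockdown), and the other held RNA of the same line with a non-target hairpin (control). Both came from 1 line, grown as neurospheres in serum-free medium with EGF and bFGF and derived from murine glioblastomas induced with the SB transposon. The comparison asks what suppression of Stat5b, a transcription factor activated downstream of cytokine receptors, does to gene expression. There was 1 array per condition and so no replicate, and every value below describes this pair of arrays.

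Wnt proteins are secreted lipid-modified ligands that bind Frizzled receptors. When a Wnt engages Frizzled together with the coreceptor LRP5 or LRP6, the complex that marks beta-catenin for destruction is held back, beta-catenin accumulates, and TCF and LEF factors on DNA switch from repression to activation of target genes. Other Wnts signal through Frizzleds and planar polarity proteins without beta-catenin. Secreted antagonists act outside the cell, either by binding the ligand (secreted frizzled-related proteins, Wif1) or by blocking the coreceptor (Dickkopf proteins). In the neural lineage and in glioma the pathway is known for its part in progenitor growth, patterning and migration.

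Probes of genes whose differences are described below are shown first, by the first 30 of the 60 bases of each oligonucleotide, because several of these genes were read by more than 1 independent sequence. Measured probes of the same gene were not copies of each other: over 26 such pairs the longest shared run was 10 bases. The sequences are those of the array design as deposited.
Dkk3, the dimmer probe: gaatgaaatttgcaaagtcgcttagcaaca
Dkk3, the brighter probe: gcctgtaaatcgcatctgaagataccacag
Wnt4: tatgaggctccttggcattgtgacatcccc
Wnt10b, the brighter probe: gggtgggaatggataatttattttactgag
Wnt10b, the dimmer probe: tgctgtgtgatgagtgtaaagtcacagagt
Ascl2: ggccagtgtgggaaccctgctgttgcaaag
Tcf7l2, the dimmest probe: gtacagcaatgaacacttcaccccgggaaa
Tcf7l2, the brightest probe: gatttgtatgtagttttaatgtcacctata
Tcf7l2, a probe of intermediate signal: caaaatactacgagctggcccggaaggaac
Tcf7l2, the other probe of intermediate signal: agacggcctccgcctcgctccgaaagtttc
Wif1: ggctgatatctactcttccttttaggtttt

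Values are given as the scanner software's processed signal on each array, and differences as log2 of the signal scaled to each array's 75th percentile, knockdown minus control. That percentile lay at a signal of 494 on the knockdown array and 493 on the control array. A gene's difference averages those of its probes that the software calls well above background on each of the arrays (here called bright), and a difference of 1 or more in size (2-fold) is counted as higher or lower. The ± beside a difference is the software's own error of the signals and does not cover differences between cultures. Different probes of 1 gene differed with an SD of 0.31 over 7233 genes, and of 0.21 over the 15 Wnt pathway genes with several measured probes. The hairpin's target Stat5b had a signal of 498 on the knockdown array and 1991 on the control array at its brighter probe (-2.0 ± 0.20). Of 15 neural and glioma stem cell markers 11 were measured on both arrays, among them Nes with a signal of 15867 on the knockdown array and 18174 on the control array, and Sox2 and Fabp7 were bright on neither. In RNA from a culture, fewer cells of a type and less RNA per cell cannot be told apart. Because each condition lies on its own array, array and condition cannot be told apart either.

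Of the 61 genes, 39 were bright on both arrays and so measured, 2 on the knockdown array alone and 1 on the control array alone, and 19 were bright on neither. Among the 39 measured genes, 4 were higher on the knockdown array by 2-fold or more (Ascl2, Dkk3, Wnt4 and Wnt10b), where 3.66% of all 16354 measured genes were. None of the 39 was lower by that size, where 2.41% of all measured genes were, and Wnt7b lay just short of that size. At 1.5-fold, 8 of the 39 were higher (11.0% of all genes) and 1 was lower (8.44% of all genes). The median difference of the 39 genes was 0.14, with quartiles of -0.07 and 0.52, and that of all measured genes was 0.01, with quartiles of -0.24 and 0.28. In all, 25 of the genes lay above 0 and 14 below, where 8361 of all measured genes lay above and 7993 below.

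**Figure D1:**
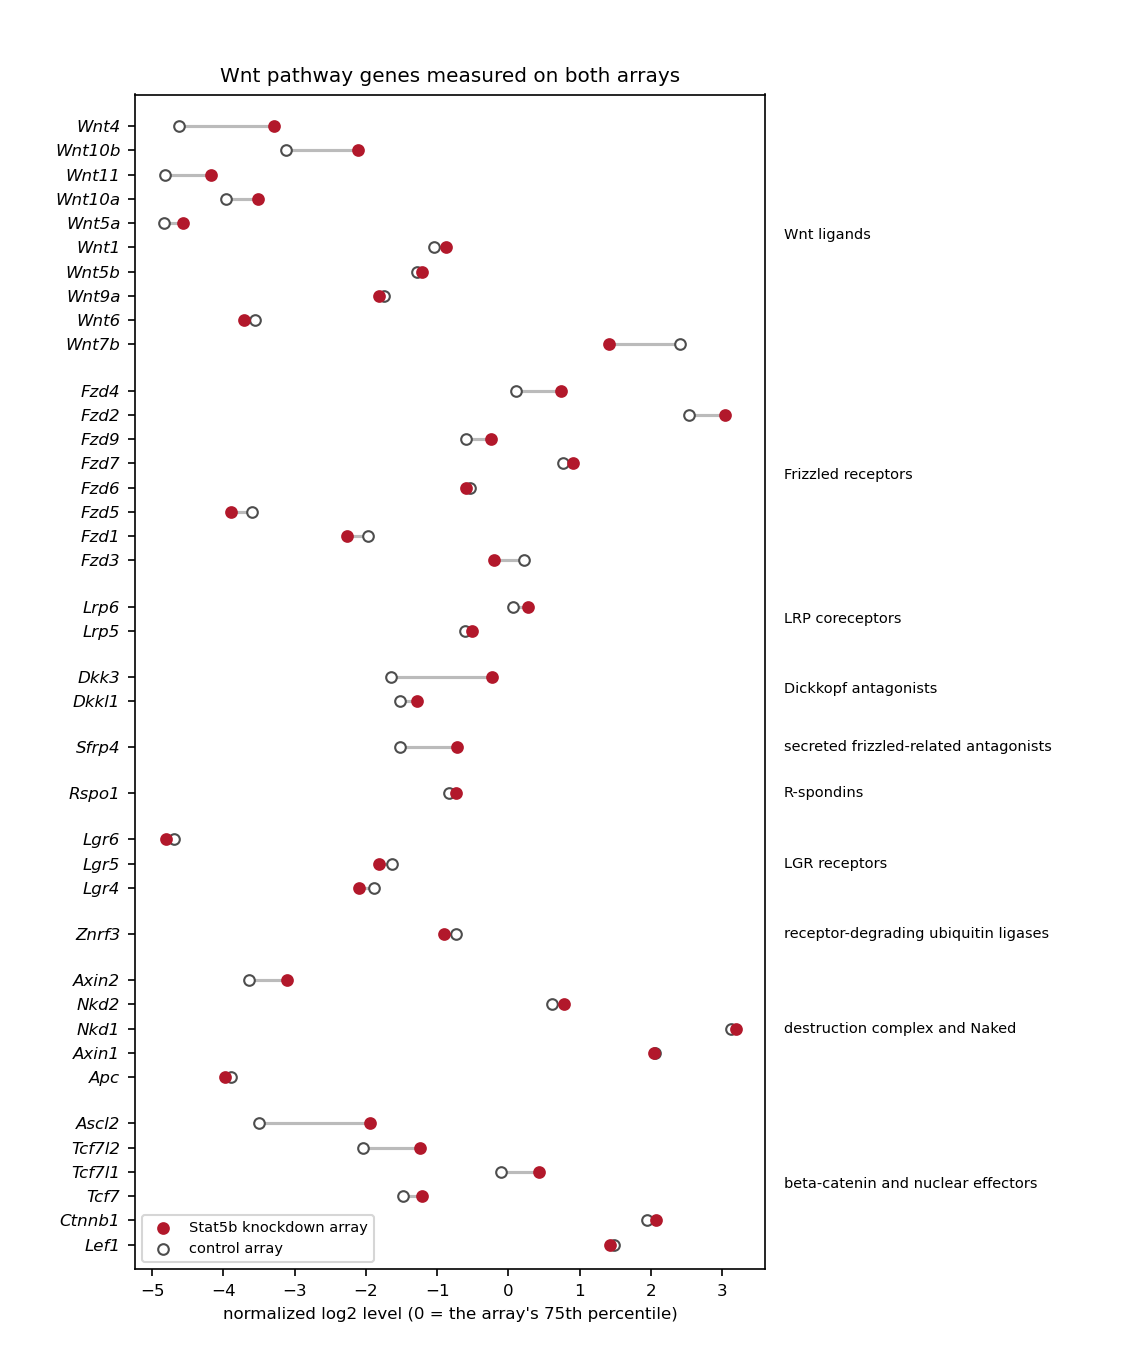
Normalized log2 level (x axis, 0 being the array's 75th percentile) of the 39 Wnt pathway genes measured on both arrays, by role, with the Stat5b knockdown array as filled points and the control array as open points. The widest gaps are those of Ascl2, Dkk3, Wnt4 and Wnt10b, with the knockdown point to the right, and of Wnt7b, with the knockdown point to the left; levels of different genes come from different probes and are not comparable.

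The ligands went in both directions. Wnt4, a ligand of kidney, gonad and neural development, had a signal of 50.5 on the knockdown array and 20.0 on the control array, a difference of 1.34 ± 0.32 from 1 probe. Wnt10b, which acts through beta-catenin, was at 1.01 ± 0.17. Its brighter probe had a signal of 231 on the knockdown array and 121 on the control array (0.93), and its dimmer probe 56.8 on the knockdown array and 26.5 on the control array (1.10). Wnt7b, a ligand of the developing brain and its vessels, was the lowest of the 39 genes at -0.99 ± 0.14. One Wnt7b probe had a signal of 2844 on the knockdown array and 5589 on the control array (-0.98), and the other 611 on the knockdown array and 1232 on the control array (-1.01). Both Wnt7b probes thus read close to 50.2% of control, the value of the gene.

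The other measured ligands lay nearer to 0. Wnt11, which signals mainly without beta-catenin, had a signal of 27.3 on the knockdown array and 17.4 on the control array (0.64 ± 0.35). That difference was 0.09 with normexp background correction and 0.36 without the filter on dim probes, where a further probe at 0.07 entered. Normexp was used with an offset of 50 added to every signal, which by itself draws differences of dim genes towards 0. Wnt10a was at 0.45 ± 0.27 and Wnt5a, a planar polarity ligand, at 0.28 ± 0.40, both from 1 dim probe. Wnt1, the midbrain organizer ligand, was at 0.17 ± 0.21, Wnt5b at 0.06 ± 0.15, Wnt9a at -0.06 ± 0.21 and Wnt6 at -0.16 ± 0.25, each within its scanner error. Over the 10 measured ligands of 19 the median was 0.22, with 7 above 0 and 3 below. Wnt3 was bright on the control array alone, but its signal was 16.6 on the knockdown array and 17.0 on the control array, a ratio of 1.02 between the control array and the knockdown array after scaling. Wnt2, Wnt2b, Wnt3a, Wnt7a, Wnt8a, Wnt8b, Wnt9b and Wnt16 were bright on neither array.

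Some ligand genes are neighbours in the RefSeq gene table (order in GRCm38). Wnt10b at 1.01 lies next to Wnt1 at 0.17, and Wnt10a at 0.45 lies next to Wnt6 at -0.16. In the remaining adjacent pairs, Wnt9a with Wnt3a and Wnt3 with Wnt9b, at least 1 gene was not measured on both arrays.

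None of the 8 measured Frizzled receptors of 10 reached 2-fold, and their median was 0.04, with 4 above 0 and 4 below. Fzd4, the receptor for Wnts and Norrin in vessel growth, was at 0.64 ± 0.14. Its brighter probe had a signal of 1000 on the knockdown array and 598 on the control array, and the other 686 on the knockdown array and 469 on the control array. Fzd2 had a signal of 4078 on the knockdown array and 2851 on the control array (0.52 ± 0.20). Fzd9 was at 0.36 ± 0.20 and Fzd7 at 0.14 ± 0.20. Fzd6 was at -0.06 ± 0.20 and Fzd1 at -0.30 ± 0.21. Fzd3, a receptor of axon guidance and planar polarity, had a signal of 431 on the knockdown array and 573 on the control array (-0.41 ± 0.20). The 2 probes of Fzd5 read -0.53 and -0.07, so its value of -0.30 ± 0.19 rests mainly on 1 of them. Fzd8 and Fzd10 were bright on neither array.

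The coreceptors that LRP genes encode differed little, and their probes did not share a sign. The brighter Lrp6 probe had a signal of 2306 on the knockdown array and 1685 on the control array (0.45), and the dimmer one 154 on the knockdown array and 160 on the control array (-0.05). The gene was at 0.20 ± 0.15. Lrp5 was at 0.09 ± 0.15, with probes at 0.22 and -0.04.

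Of 10 secreted antagonists 3 were measured on both arrays, all of them above 0, and Dkk3 was past 2-fold. Dkk3, a divergent Dickkopf protein that is not a classical LRP blocker, was at 1.42 ± 0.15. Its brighter probe had a signal of 797 on the knockdown array and 289 on the control array (1.46), and its dimmer one 223 on the knockdown array and 84.9 on the control array (1.39). The 2 Dkk3 sequences printed above therefore gave nearly the same difference, and a further probe was bright on neither array. Dkkl1, a Dickkopf-like gene best known from testis, had a signal of 202 on the knockdown array and 172 on the control array (0.23 ± 0.21). Sfrp4, a secreted frizzled-related protein, had a signal of 300 on the knockdown array and 172 on the control array (0.81 ± 0.21).

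The ligand-binding inhibitor Wif1 was bright on the knockdown array alone, with a signal of 31.8 there and 8.31 on the control array. Against the lowest bright signal of the control array, the Wif1 signal of the knockdown array was at least 2.63-fold higher. A bound of at least 2-fold was reached by 39.4% of the 505 genes bright on the knockdown array alone. Sfrp2, also bright on the knockdown array alone, had signals of 16.3 on the knockdown array and 5.73 on the control array, a bound of at least 1.35-fold. The classical coreceptor blockers Dkk1, Dkk2 and Dkk4, and Sfrp1 and Sfrp5, were bright on neither array.

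Some markers of other cell types were also higher on the knockdown array. All 6 measured fibroblast and meningeal markers of 7 lay above 0, with a median of 0.93. The signal summed over a list, taking the highest probe of each marker, was 5000 on the knockdown array and 1921 on the control array for these 7 markers. The remaining one, Lum, was bright on the control array alone. The 8 astrocyte markers had a summed signal of 4288 on the knockdown array and 2058 on the control array, most of it from Aldoc (1.19 ± 0.07). Of the other astrocyte markers measured, Gja1 was at 0.98 ± 0.26, Slc1a2 at 0.04 ± 0.25 and Aldh1l1 at -0.08 ± 0.23, and the probes of Aqp4 read -0.02 and 1.90. S100b was bright on the knockdown array alone, Gfap on the control array alone and Slc1a3 on neither. The 8 endothelial and mural markers had a summed signal of 1480 on the knockdown array and 718 on the control array, most of it from Cspg4 (0.77 ± 0.13), counted here as a mural marker. The mural markers Pdgfrb and Rgs5 were at 2.19 ± 0.33 and 0.46 ± 0.26, and the endothelial markers Pecam1 and Cdh5 at 0.26 ± 0.23 and -0.75 ± 0.23. Kdr, Tek and Cldn5 were bright on neither array. Summed signals of microglial and immune markers were 12709 on the knockdown array and 11458 on the control array. Of the 6 measured of these 10 markers 4 lay above 0 and 2 below, from Tmem119 at 1.80 ± 0.24 to Cd68 at -0.48 ± 0.12. Neuronal markers had a summed signal of 6476 on the knockdown array and 5895 on the control array. Oligodendrocyte lineage markers had 2445 on the knockdown array and 2487 on the control array. The part of these markers' cell types or programmes in the antagonist values was not tested.

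R-spondins, which strengthen Wnt signals, and their LGR receptors were near 0. Rspo1 had a signal of 298 on the knockdown array and 276 on the control array (0.11 ± 0.21), and Rspo2, Rspo3 and Rspo4 were bright on neither array. The 3 LGR receptors all lay slightly below 0. Lgr4 had a signal of 116 on the knockdown array and 133 on the control array (-0.20 ± 0.21). Lgr5, a stem cell marker of gut epithelium, had 1 probe at 557 on the knockdown array and 538 on the control array (0.05) and another at 35.5 on the knockdown array and 47.2 on the control array (-0.41), so its -0.18 ± 0.16 is no common reading. Lgr6 was at -0.11 ± 0.41. Znrf3, a ubiquitin ligase that removes Frizzled from the membrane and that R-spondins counteract, was at -0.18 ± 0.12 with 3 probes between -0.19 and -0.16. Its partner Rnf43 was bright on neither array.

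**Figure D2:**
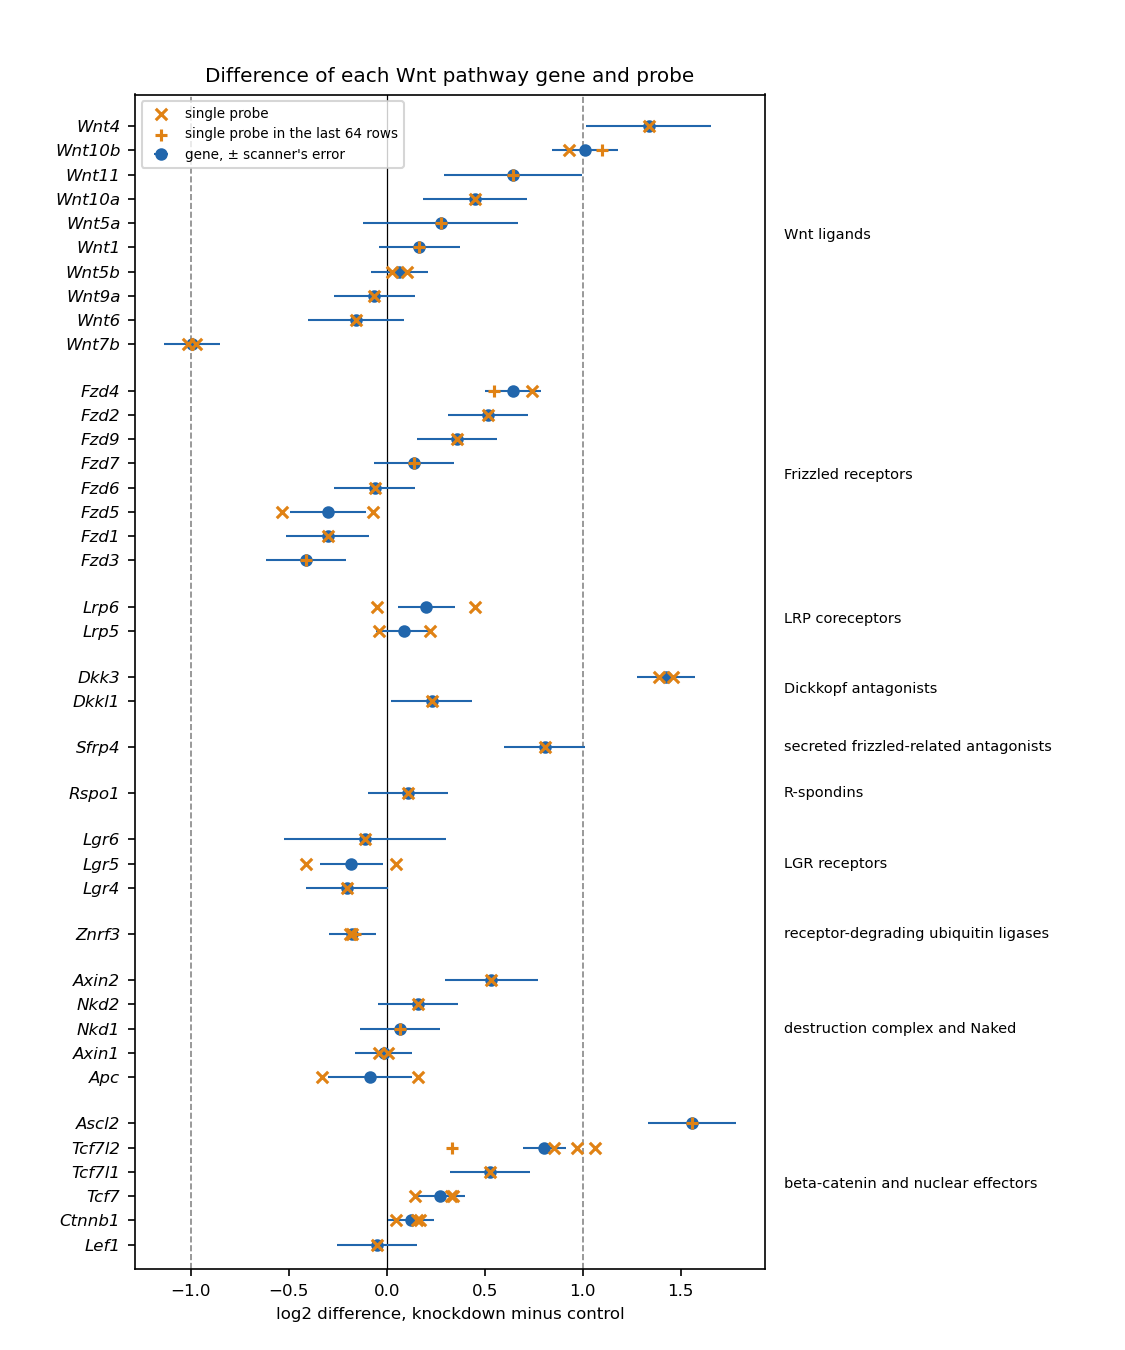
Log2 difference (x axis, knockdown minus control) of each of the 39 measured Wnt pathway genes as a point with the scanner software's error as a bar, and of each measured probe as a cross or plus. Dashed lines mark 2-fold; the probes of Dkk3, Wnt10b and Wnt7b lie close together, whereas those of Lrp6, Lgr5 and Apc fall on both sides of 0.

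The intracellular inhibitors held Axin2 as their most changed member. Axin2, a scaffold of the destruction complex and a feedback target of beta-catenin signalling, had a signal of 57.2 on the knockdown array and 39.5 on the control array (0.53 ± 0.24, or 0.20 with normexp background correction), and a further probe was bright on neither array. Nkd1, which restrains Dishevelled and is likewise a feedback gene, had a signal of 4545 on the knockdown array and 4329 on the control array (0.07 ± 0.20). Nkd2 was at 0.16 ± 0.20. Axin1, the constitutive scaffold, was at -0.02 ± 0.14. Apc was at -0.09 ± 0.22, with probes at 0.16 and -0.33.

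Among beta-catenin, the TCF and LEF factors and the Wnt target Ascl2, 5 of 6 genes lay above 0 and the median was 0.40. Ctnnb1, which encodes beta-catenin, was at 0.12 ± 0.12, with 3 probes between 0.04 and 0.17. Tcf7l2, the TCF factor of intestine and glia, was at 0.81 ± 0.11. Its brightest probe had a signal of 919 on the knockdown array and 469 on the control array (0.97), and its dimmest had 63.9 on the knockdown array and 30.6 on the control array (1.06). One remaining probe had 162 on the knockdown array and 89.2 on the control array (0.86). The last had 200 on the knockdown array and 158 on the control array (0.33). All 4 sequences gave a higher signal on the knockdown array. Those probes carry accessions of different Tcf7l2 transcripts, and whether transcripts changed unequally was not tested.

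Tcf7l1, the family member best known as a repressor, had a signal of 663 on the knockdown array and 459 on the control array (0.53 ± 0.20). Tcf7 was at 0.27 ± 0.13, with 3 probes between 0.14 and 0.34, and Lef1 was at -0.05 ± 0.20. Ascl2, a helix-loop-helix factor and Wnt target of intestinal stem cells, was the highest of all 39 genes at 1.56 ± 0.23, with a signal of 128 on the knockdown array and 43.4 on the control array. That value rests on 1 probe, and a further Ascl2 probe was bright on neither array and read 0.09.

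Dim genes pass 2-fold more often. Among all 4663 genes with a mean normalized level under -2, 6.73% were higher on the knockdown array by 2-fold or more and 3.22% were lower by as much. Of the 12 Wnt pathway genes in that range 3 were higher (Ascl2, Wnt4 and Wnt10b). Of the 27 brighter ones 1 was, Dkk3, where 3.66% of all measured genes of any level were. The only measured Ascl2 probe and 1 of the Wnt10b probes lie among the array's last 64 rows of spots. In those rows 3.95% of measured gene probes were 2-fold or more higher and 3.77% were lower by as much, against 3.27% higher and 2.55% lower in the other rows. Dkk3 kept 2-fold in all 9 alternatives of processing (1.19 to 1.67), but several of these could hardly move it. Brighter probes alone, RefSeq mRNA probes alone and leaving out the last 64 rows kept the same Dkk3 probes. Median scaling and the authors' table shifted every Wnt pathway gene by the same amount. With normexp background correction Ascl2 was at 0.80, Wnt4 at 0.34 and Wnt10b at 0.58. The offset of 50 in normexp lowers differences of such dim genes by construction, and normexp also started from another measure, the raw median signal. The part of each in the lower values was not tested, and these values are no measure of repeatability. Without the filter on dim probes Ascl2 was at 0.82. Wnt4 was not measured among brighter probes alone, and Ascl2 was not measured without the last 64 rows. Wnt7b was at -0.91 with normexp and reached 2-fold with median scaling.

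**Figure D3:**
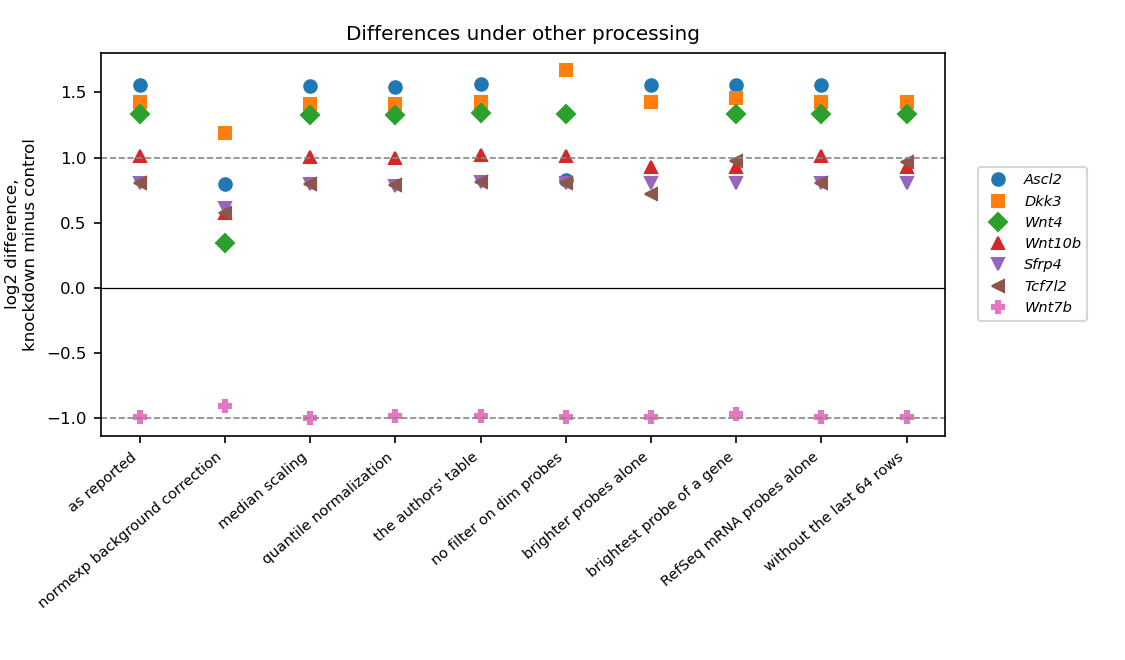
Log2 difference (y axis, knockdown minus control) of 7 Wnt pathway genes as reported and under 9 other processing choices (x axis), with dashed lines at 2-fold. Dkk3 stays above the upper line throughout and Wnt7b beside the lower one, whereas Wnt4, Ascl2 and Wnt10b fall below the upper line with normexp; a missing point means that the gene was not measured in that setting.

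Pathway genes outside the naming rule were described by 6 lists holding 118 genes on the array, of which 100 were measured on both. Of these, 4 were 2-fold or more higher (3.66% of all genes) and 4 were lower by as much (2.41% of all genes), 50 lay above 0 and 50 below, and the median was -0.003. Further secreted or membrane antagonists had a median of 0.28, and 6 of 9 lay above 0. Frzb, another secreted frizzled-related protein, had a mean signal of 109 on the knockdown array and 47.8 on the control array (1.20 ± 0.16, or 0.65 with normexp), with both probes past 2-fold (1.04 and 1.36). The Frzb probe at 1.04 lies in the last 64 rows. Igfbp4, an insulin-like growth factor binding protein that also inhibits Wnt signalling, had a mean signal of 1880 on the knockdown array and 886 on the control array (1.08 ± 0.14, probes at 1.08 and 1.09). The Dickkopf receptor Kremen2 had the lowest value of that list at -0.57 ± 0.24.

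Genes of ligand release, 5 measured of 6 on the array, had a median of 0.38. They ran from the glypican Gpc4 at 0.79 ± 0.15 to Notum at -0.28 ± 0.17. The probes of Notum, an enzyme that removes the Wnt lipid, fell on both sides of 0 (-0.69 and 0.12). The planar polarity list had a median of -0.07, and its cadherin Celsr1 had a signal of 1777 on the knockdown array and 663 on the control array (1.42 ± 0.20). Further destruction complex and Dishevelled genes had a median of -0.08. In that list Dact1, a Dishevelled-binding regulator, had a signal of 56.7 on the knockdown array and 131 on the control array (-1.21 ± 0.22), from 1 probe in the last 64 rows. Nuclear partners of beta-catenin had a median of 0.04. The kinase Nlk, which phosphorylates TCF factors, was their lowest member, with a mean signal of 350 on the knockdown array and 871 on the control array (-1.16 ± 0.13, 3 probes from -1.39 to -0.79).

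The list of Wnt target genes went in both directions. Of 34 measured, 13 lay above 0 and 21 below, and the median was -0.11. The DNA-binding inhibitor Id2, a target of BMP signals as well, had a mean signal of 194 on the knockdown array and 927 on the control array (-1.97 ± 0.15). Nrcam, a neuronal adhesion molecule, had a signal of 1959 on the knockdown array and 6170 on the control array (-1.66 ± 0.20). Zcchc12, a zinc finger coactivator, went the other way with a signal of 422 on the knockdown array and 86.0 on the control array (2.29 ± 0.21).

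**Figure D4:**
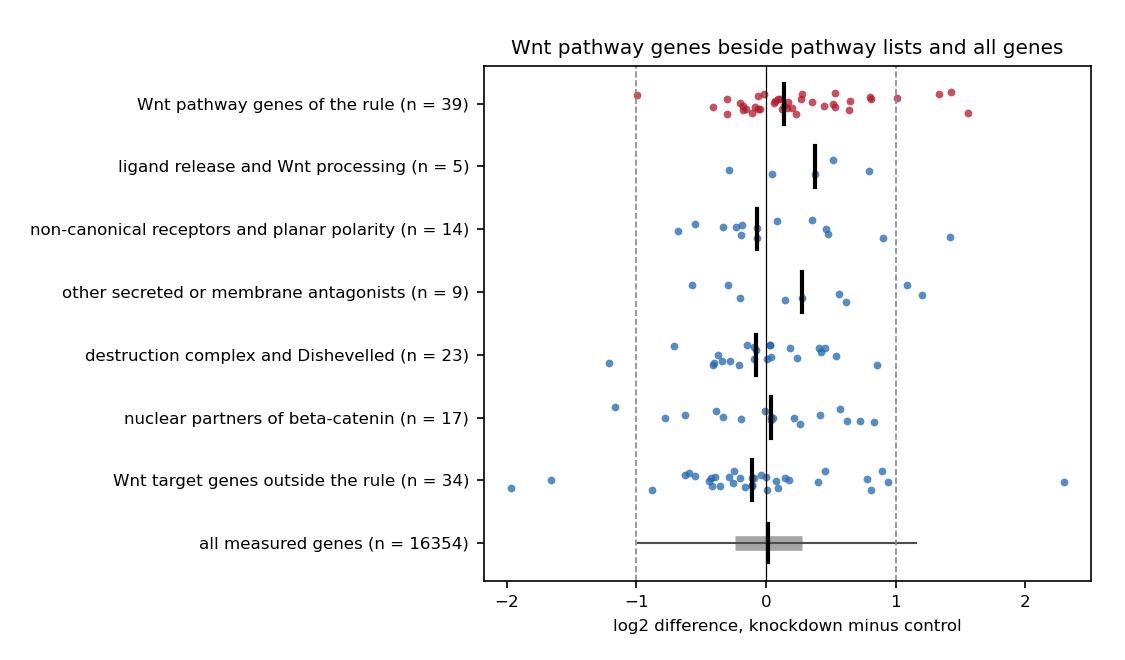
Log2 difference (x axis, knockdown minus control) of the 39 Wnt pathway genes of the rule, of the measured genes of 6 pathway lists, and of all 16354 measured genes; each point is a gene, black bars are medians, and the lowest row shows quartiles as a thick bar and the central 95% as a line. Dashed lines mark 2-fold; Notum and Apcdd1 stand in 2 lists.

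Promoter windows were searched for the palindromic motif TTCNNNGAA, the core that STAT factors including STAT5 bind, and for CTTTGAT, the core of TCF and LEF sites, on both strands. The windows run from 250 bases before to 50 after a start site in RefSeq (GRCm38.p6), and 51 windows of 41 of the 61 genes were found. The 41 include Wnt4, Wnt10b, Ascl2 and Tcf7l2, and do not include Dkk3 and Wnt7b. The STAT motif was present in 1 of the 51 (1.96%), against 8.30% of all 32851 windows, and the TCF motif in 2 (3.92%), against 3.73% of all windows. The genes with a match were Wnt5b, with each motif at a different start site, and Wnt11. Wnt5b was at 0.06 and Wnt11 at 0.64, and neither run of letters was in the windows of Wnt4, Wnt10b, Ascl2 and Tcf7l2. A match is a description of the letters, and these windows leave out enhancers, so nothing follows about binding. A matching stretch of each gene is printed with the motif in capitals, each 5′ to 3′ on the strand of the gene and ending before the start site.
Wnt5b, STAT motif, chr6:119467302-119467430, minus strand: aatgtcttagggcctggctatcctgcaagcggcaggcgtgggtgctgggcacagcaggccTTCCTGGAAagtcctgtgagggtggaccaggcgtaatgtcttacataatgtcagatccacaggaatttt
Wnt11, TCF motif on the opposite strand, chr7:98835001-98835111, plus strand: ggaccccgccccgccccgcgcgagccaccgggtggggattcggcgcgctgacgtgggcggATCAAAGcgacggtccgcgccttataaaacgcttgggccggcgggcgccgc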

How the data were processed

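Per the file headers, the deposited scanner files hold intensity values of single-colour (Cy3) arrays made with Agilent Feature Extraction 12.1.0.3, protocol GE1_1200_Jun14, and name build mm9; the processed signal is background-corrected and not scaled between arrays. The deposited 0 or 1 flags are those of the same software. The authors' deposited table holds log2 values, equal to log2 of the processed signal minus 8.94 on each array, within 0.001 for 100% of single-spot probes; its column medians were -3.83 on each array.

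Control spots and outlier-flagged spots (94 on the knockdown array, 112 on the control array) were left out, and 0 spots were saturated. Each of the 56605 probes was given log2 of its signal, floored at 1, from which the 75th percentile over its array was subtracted. Well above background were 58.6% of probes on the knockdown array and 59.5% on the control array. A gene bright on 1 array alone got a bound against the lowest level well above background (-5.25 on the knockdown array, -5.35 on the control array) or the dim signal itself, if higher. Gene symbols are those of the authors' table; of the 100 probes of the Wnt pathway genes, 86 had an accession in the RefSeq gene table, and all 86 had the same symbol there. The table's coordinates gave the order of neighbouring genes. They were not used to place probes, since the table's build is not that of the headers.

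No test was run, since there was 1 array per condition. Genes named with values were those measured on at least 1 array, and of other pathway lists the members past 2-fold or the extremes. The genes and lists were chosen with earlier results of these data known, as was the last-rows alternative. Normexp (limma 3.58.1, R 4.3.3, offset 50) used the raw median signal, the raw mean not being used here. Other steps used Python 3.11.15, numpy 2.4.6 and pandas 2.3.3, and the steps were tested on simulated data. The number of arrays limits the precision.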

Additional observations from a re-analysis of the deposited data

How the results depend on the processing

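The 4 genes past 2-fold in favour of the knockdown array became 1 with normexp background correction (Dkk3), 2 among brighter probes alone (Ascl2 and Dkk3), 2 without the last 64 rows (Dkk3 and Wnt4), 6 without the filter on dim probes (Dkk3, Rspo4, Sfrp2, Wif1, Wnt10b and Wnt4) and 8 at 1.5-fold. The count of 0 past 2-fold in favour of the control array became 1 with median scaling (Wnt7b), 1 without the filter on dim probes (Wnt2) and 1 at 1.5-fold (Wnt7b). Of all genes measured in each setting, 3.66% were 2-fold higher as reported and 1.16% with normexp, whose offset draws dim differences towards 0. The share was 3.29% among brighter probes alone, 3.57% without the last 64 rows and 4.76% without the filter. Lower by 2-fold were 2.41% as reported, 2.49% with median scaling and 3.71% without the filter. At 1.5-fold, 11.0% were higher and 8.44% lower. Wnt10b was also short of 2-fold with quantile normalization and with the brightest probe of a gene. The median difference of the Wnt pathway genes lay between 0.11 and 0.16 under the 9 alternatives. Of 335 single values under alternatives, 326 moved by less than the probe spread over all genes (SD of 0.31). The 9 that moved by more were Ascl2, Axin2, Wnt10b, Wnt11, Wnt4 and Wnt5a with normexp, and Ascl2, Lgr6 and Nkd2 without the filter. Many of the 335 could hardly move, since some alternatives shift all genes by the same amount or keep the same probes of a gene. In all, 7 genes changed sign (Axin1, Lef1, Lgr5, Lgr6, Nkd2, Wnt5a and Wnt5b), all within 0.28 of 0 as reported. Among the genes outside the rule, chosen for this check after their values were seen, Dact1, Frzb and Nlk fell short of 2-fold with normexp, and Dact1 was not measured without the last 64 rows. A detection call from the negative control spots counted 44 genes in place of 39. Of the 39 genes 12 had a mean level under -2. Without the filter on dim probes the median of all genes was 0.10. Leaving out a replicate was not possible with 1 array per condition. No paired analysis was possible because each condition had 1 array and no test was run.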
